A study of Canis lupus familiaris with 12 samples.

Results

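The question examined was whether mRNA levels in MDCKII cells lacking both CGN and CGNL1 equal the sum of what is seen in cells lacking only 1 of them. MDCKII is an epithelial cell line from dog kidney. RNASeq libraries had been made from untreated cells of 4 genotypes, namely WT, CGN-KO, CGNL1-KO, and the double-KO that the labels write as CGN_CGNL1-dKO, with 3 libraries for each genotype. Means below are over those 3 libraries. Each KO genotype was 1 clonal line made by CRISPR/Cas9 editing, and the double-KO line carries the loss of both genes. All 12 libraries entered 1 fit. Of the 13672 genes listed, the 12650 with more than 1 CPM (reads per 1000000 reads) in at least 3 libraries were tested, whatever their response. The third-highest level of the last gene kept was 1.002 CPM, and that of the first gene left out was 0.994 CPM. Differences are given in log2(CPM + 1) units, and adding 1 makes the changes of genes with few reads look smaller than they are.

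CGN (cingulin) and CGNL1 (paracingulin) are related coiled-coil proteins of the apical junctional complex, the belt of tight and adherens junctions that seals an epithelial sheet. Both sit on the cytoplasmic side of the junction, bind its scaffolds, and connect it to actomyosin. When 2 related genes are deleted together, the response can equal the sum of the single responses, fall short of it because the second loss adds little, or exceed it because each gene covered for the other. The interaction puts a number on this. It is the double-KO level minus the CGN-KO level minus the CGNL1-KO level plus the WT level, and it is 0 when the differences from WT add up on the log scale. A positive interaction means that the double-KO level was higher than the sum of the single differences would give, and a negative interaction that it was lower.

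The transcripts of both deleted genes were additive. CGN mRNA was at 233, 211, and 199 CPM in the WT libraries, and at 56.5, 48.3, and 47.0 CPM in the CGN-KO libraries. It was at 213, 202, and 198 CPM in the CGNL1-KO libraries, and at 41.6, 45.3, and 39.7 CPM in the double-KO libraries. The lines without CGN lay far below the others with no overlap. The interaction of CGN was −0.19 ± 0.11 (SE), with a 95% interval from −0.41 to 0.04 and an adjusted p of 0.308. CGNL1 mRNA was at 12.3, 9.22, and 7.74 CPM in WT cells, at 6.92, 5.04, and 6.02 CPM in CGN-KO cells, at 3.02, 1.76, and 2.25 CPM in CGNL1-KO cells, and at 1.11, 1.76, and 1.58 CPM in double-KO cells. CGNL1 mRNA was also lower in CGN-KO than in WT cells (difference −0.61 ± 0.17, adjusted p = 0.0201). Its interaction was 0.19 ± 0.24, with a 95% interval from −0.33 to 0.70 and an adjusted p of 0.688. Residual transcript in a KO line says nothing about the protein.

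The libraries held between 16837532 and 30086076 reads over the listed genes, and the 10 genes with the most reads took 7.27% to 10.4% of a library. The summed level of 10 epithelial markers was between 9459 and 10712 CPM in all libraries. Of 15 markers of endothelium, leukocytes, and fibroblasts, 4 were listed, and their summed level ranged from 5.46 to 13.3 CPM, whereas PECAM1, PTPRC, and COL1A1 were not among the listed genes. Properties of a clone and the loss of a gene cannot be told apart, because each genotype is a single line. The labels do not say whether the libraries of a genotype came from separate cultures, so the p-values measure the spread between these libraries, which may be technical.

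Most genes showed no interaction of 2-fold or more. The median interaction of all 12650 genes was 0.0092, and 5% of genes lay below −0.52 and 5% above 0.37. The 95% interval of the interaction lay between −1 and 1, that is within 2-fold either way in CPM + 1, for 11947 genes (94.4%). Within 2-fold has this meaning below too, and for genes with few reads it allows more than 2-fold in CPM. At an adjusted p below 0.05 an interaction was called for 1306 genes (10.3% of those tested), of which 490 were positive (3.87%) and 816 negative (6.45%). An interaction of at least 2-fold was called for 206 genes (1.63%), 34 positive and 172 negative. The count of 1306 became 831 without WT replicate 2 and 843 without the double-KO library whose column has no replicate number. With CPM taken from library totals alone the interaction was called for 1294 genes, 581 positive and 713 negative.

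Genes that responded were then sorted by how the double-KO difference related to the sum of the single-KO differences. At an adjusted p below 0.05 and at least 2-fold, the difference from WT was called for 166 genes in CGN-KO cells (1.31% of those tested), 78 genes in CGNL1-KO cells (0.617%), and 178 genes in double-KO cells (1.41%). The sum of the single-KO differences was called for 520 genes (4.11%). Either the sum or the double-KO difference was called for 557 genes. Of these, 352 were buffered (the interaction was called and opposite to the sum), 57 were additive (the sum and the double-KO difference were called with 1 sign, no interaction was called, and its 95% interval lay within 2-fold), 13 were beyond the sum (the interaction was called and had the sign of the double-KO difference), and 3 were changed in the double-KO line only. For 132 genes the data did not decide between these classes. No gene was reversed, meaning called on opposite sides of WT in the sum and in the double-KO line, by limma, whereas edgeR and DESeq2 on the recovered reads each placed 1 gene there. The class beyond the sum does not require the sum to have the sign of the double-KO difference. For TRPA1 and CCL20, for example, the sums of −0.79 and 0.88 lay across WT from the double-KO differences of 1.54 and −1.34. These sums were under 2-fold, so neither gene counted as reversed.

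**Figure D1:**
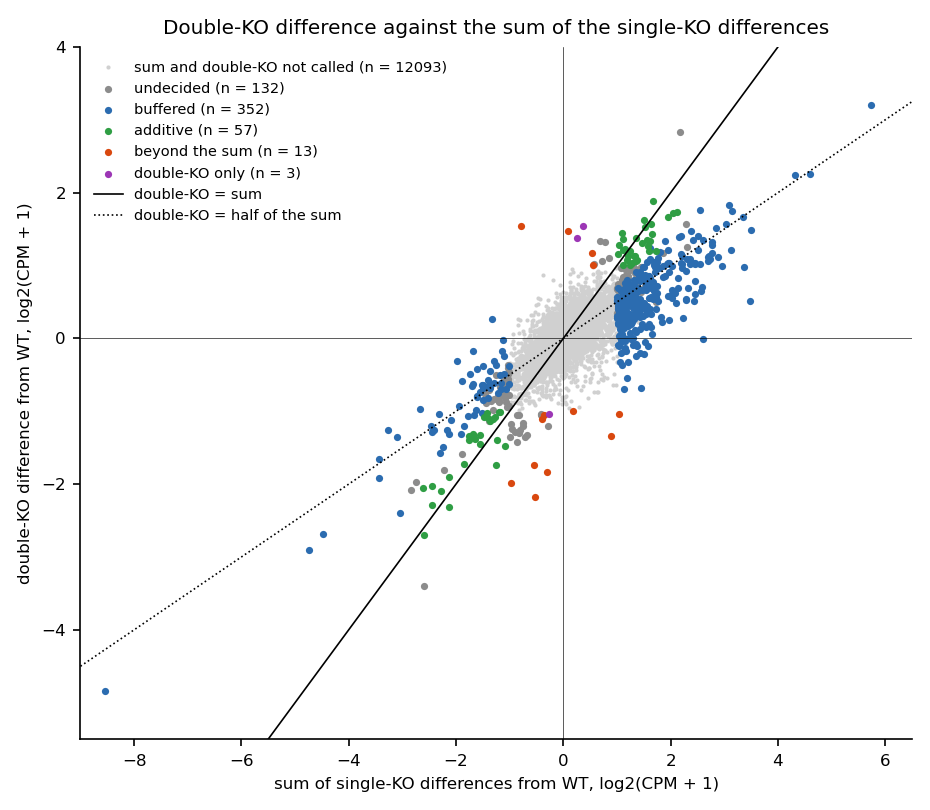
Double-KO difference from WT (vertical axis, log2(CPM + 1)) against the sum of the CGN-KO and CGNL1-KO differences (horizontal axis, the same scale) for each of 12650 genes, coloured by class. The 352 buffered genes lie between the horizontal axis and the line of equality or across the axis from it, and the 57 additive genes lie along the line of equality.

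The sum was positive for 291 (82.7%) of the 352 buffered genes and negative for 61, while it was positive for 389 (74.8%) of the 520 genes with a called sum, from which the class is drawn. The double-KO difference amounted to a median of 0.413 of the sum, with quartiles of 0.256 and 0.519. It lay on the other side of WT from the sum for 26 genes, was between 0 and 0.25 of the sum for 58, between 0.25 and 0.5 for 164, and between 0.5 and 1 for 104. In 300 of the 352 genes it was smaller than the larger of the single-KO differences. The class rule itself uses the interaction, so its direction in these genes is not a finding. WT also enters the sum and the interaction with opposite signs, and a change shared equally by all 3 KO lines gives an interaction of the same size and opposite sign by arithmetic. Of the 352 genes, 324 had the same sign of difference from WT in all 3 lines, and in 236 all 3 differences passed an adjusted p below 0.05. In 169 genes the double-KO level differed from neither single-KO level at an adjusted p below 0.05, and in 63 it differed from both.

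The buffered genes with the largest sums included receptors, a transcription factor, and a chemokine. ACKR3 encodes an atypical chemokine receptor that takes up CXCL12. Its level was 7.78, 6.62, and 8.98 CPM in WT cells and 108, 126, and 117 CPM in CGN-KO cells. It was 35.7, 31.1, and 34.2 CPM in CGNL1-KO cells and 70.2, 82.5, and 87.7 CPM in double-KO cells. The groups did not overlap, and the double-KO line lay between the single-KO lines, where the sum of the single differences would give 466 CPM (interaction −2.53 ± 0.14, adjusted p = 9.71e-09). IL1RL1, which encodes the IL-33 receptor ST2, had 58.2, 47.7, and 61.2 CPM in WT, 354, 326, and 350 CPM in CGN-KO, 229, 215, and 229 CPM in CGNL1-KO, and 280, 272, and 256 CPM in double-KO cells. The double-KO line again lay between the single-KO lines (interaction −2.35 ± 0.11, adjusted p = 9.91e-10). EPAS1 encodes HIF-2α, a transcription factor of the response to low oxygen. Its mean level was 10.4 CPM in WT, 67.8 CPM in CGN-KO, 36.5 CPM in CGNL1-KO, and 52.8 CPM in double-KO cells, against 225 CPM from the sum (interaction −2.08 ± 0.13, adjusted p = 6.20e-08). CCL17, a chemokine ligand of CCR4, had mean levels of 34.2, 186, 74.3, and 98.1 CPM in the same order, against 399 CPM from the sum (interaction −2.01 ± 0.09, adjusted p = 9.37e-10).

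Both single-KO lines were called with the same sign in 44 buffered genes, 33 higher and 11 lower than WT. In 32 of these the double-KO line was called as well, and in 12 it was not. Among all buffered genes, 238 had a double-KO level whose 95% interval lay within 2-fold of WT and was not called (208 with a positive and 30 with a negative sum), and in 85 of them the double-KO difference had an adjusted p of 0.05 or more. ADAMDEC1, which encodes a secreted metalloprotease-like protein, was the plainest case. Its level was 6.48, 5.80, and 6.83 CPM in WT, 20.8, 14.3, and 17.2 CPM in CGN-KO, 19.6, 12.9, and 19.6 CPM in CGNL1-KO, and 6.64, 6.54, and 5.80 CPM in double-KO cells. The 6 single-KO libraries lay above all others, and the WT and double-KO values overlapped. The double-KO difference from WT was −0.01 ± 0.15 and the interaction −2.61 ± 0.21 (adjusted p = 8.72e-07). SCGB1A1, the secretoglobin of airway club cells, had 3.12, 1.99, and 2.10 CPM in WT, 17.4, 10.9, and 10.3 CPM in CGN-KO, 13.2, 5.10, and 8.56 CPM in CGNL1-KO, and 3.83, 3.87, and 3.78 CPM in double-KO cells. Every double-KO value lay above the WT values and below all single-KO values, and the interaction was −2.96 ± 0.34 (adjusted p = 3.38e-05), the most negative of the named genes.

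Several of the largest positive interactions, though not that of TRPA1, belonged to genes that were low in all 3 KO lines. S100A16, a calcium-binding protein of the S100 family, was at 31.6, 32.1, and 35.1 CPM in WT cells and at 2.21, 0.395, and 1.71 CPM in CGN-KO cells. It was at 0.290, 0.361, and 0.375 CPM in CGNL1-KO cells and at 0.0969, 0.171, and 0.284 CPM in double-KO cells, from 2, 3, and 7 reads. The KO lines lay close to the bottom of the scale, where a further fall cannot be measured. The sum of the single differences of S100A16 would put the double-KO level below 0 CPM on the log2(CPM + 1) scale, so its interaction of 3.70 ± 0.30 (adjusted p = 1.00e-06) was bound to be positive. By edgeR on the recovered reads, with no such floor but few reads, the interaction was 3.61 with an adjusted p of 0.0268. The expected level was below 0 CPM for 13 of all genes tested, and these included 12 of the 61 buffered genes with a negative sum and 9 of the 34 positive interactions of at least 2-fold. CTBS, TM4SF18, and GLT1D1 were among them, with mean double-KO levels of 1.11, 1.15, and 0.184 CPM.

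Other low genes kept a measurable level, but the double-KO levels expected from the sum were also low. They were 1.13 CPM for TIMP1, 0.0923 CPM for STEAP1, and 2.68 CPM for STEAP2. How much the low end of the scale adds to their interactions was not tested. TIMP1, an inhibitor of matrix metalloproteases, was at 22.9, 21.2, and 22.2 CPM in WT cells. It was at 7.09, 4.54, and 6.2 CPM in CGN-KO, 5.57, 6.59, and 6.42 CPM in CGNL1-KO, and 6.93, 6.71, and 5.48 CPM in double-KO cells. The 3 KO lines overlapped each other and lay far below WT, and the interaction was 1.78 ± 0.18 (adjusted p = 9.94e-06). STEAP1 and STEAP2 encode related metalloreductases. STEAP1 fell from a mean of 9.50 CPM in WT to 2.58 CPM in CGN-KO, 2.32 CPM in CGNL1-KO, and 3.38 CPM in double-KO cells (interaction 2.0 ± 0.25, adjusted p = 7.24e-05). STEAP2 fell from 30.7 CPM to 9.83, 9.84, and 11.4 CPM in the same order (interaction 1.74 ± 0.17, adjusted p = 6.99e-06). STEAP3 went the other way, with 68.4, 102, 87.1, and 76.7 CPM and an interaction of −0.74 ± 0.12 (adjusted p = 0.00114).

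MHC class II genes, picked out after their values were seen, were buffered as a block. These genes encode proteins that serve the presentation of peptides to helper T cells, among them the invariant chain CD74 and the transactivator CIITA. All 7 that were tested had a negative interaction and were buffered, and their median interaction was −1.84, against 0.0092 over all genes. DLA-DMB was at 14.6, 12.8, and 13.3 CPM in WT, 65.5, 52.1, and 56.8 CPM in CGN-KO, 37.3, 32.7, and 37.5 CPM in CGNL1-KO, and 26.7, 28.2, and 28.2 CPM in double-KO cells. The double-KO libraries lay above WT and below both single-KO lines, and the interaction was −2.38 ± 0.12 (adjusted p = 4.17e-09). DLA-DRA had mean levels of 67.1 CPM in WT, 196 CPM in CGN-KO, 141 CPM in CGNL1-KO, and 110 CPM in double-KO cells (interaction −1.88 ± 0.11, adjusted p = 1.69e-08). CIITA, which drives transcription of the others, had 12.5, 22.7, 22.9, and 18.9 CPM (interaction −1.08 ± 0.12, adjusted p = 4.08e-05). CD74 had the smallest interaction of the 7 (−0.52 ± 0.09, adjusted p = 0.00110), and its double-KO mean of 1728 CPM differed from the CGN-KO mean of 1708 CPM by less than the spread between libraries (adjusted p = 0.902). MHC class II genes are similar to each other in sequence, and how reads were divided among them was not tested.

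Chemokine ligands were also looked at after their values were seen. Of 12 CC and CXC ligands tested, 9 had a negative interaction and none a positive one, with a median of −1.27. Over all genes tested 6.45% were negative and 3.87% positive, and the median was 0.0092. They did not share a class, since 3 were buffered and 4 were beyond the sum. CCL2 and CCL7 attract monocytes, and both fell below WT in double-KO cells. CCL2 was at 36.2, 40.2, and 37.4 CPM in WT, 20.7, 23.0, and 22.1 CPM in CGN-KO, 44.5, 38.5, and 52.2 CPM in CGNL1-KO, and 7.56, 6.03, and 9.62 CPM in double-KO cells. The double-KO line was the lowest with no overlap, where the sum would give 25.9 CPM (interaction −1.64 ± 0.18, adjusted p = 2.19e-05). CCL7 had means of 4.72, 3.02, 5.61, and 0.602 CPM in the same order, and its double-KO values rest on 15, 9, and 14 reads (interaction −1.53 ± 0.17, adjusted p = 3.34e-05). CXCL8, the neutrophil attractant interleukin-8, had means of 2.40, 1.31, 4.69, and 0.702 CPM (interaction −1.18 ± 0.24, adjusted p = 0.00539). CXCL16, CCL25, and CCL27 had intervals that included 0. Several negative calls rest on few double-KO reads. These were 16, 7, and 23 for CXCL8, 11, 17, and 15 for CXCL10, and 17, 12, and 17 for CXCL17. They were 4, 10, and 10 for CCL24, and 9, 17, and 16 for CCL28. Each double-KO library held 54 or more reads of CCL2, CCL17, and CCL20.

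**Figure D2:**
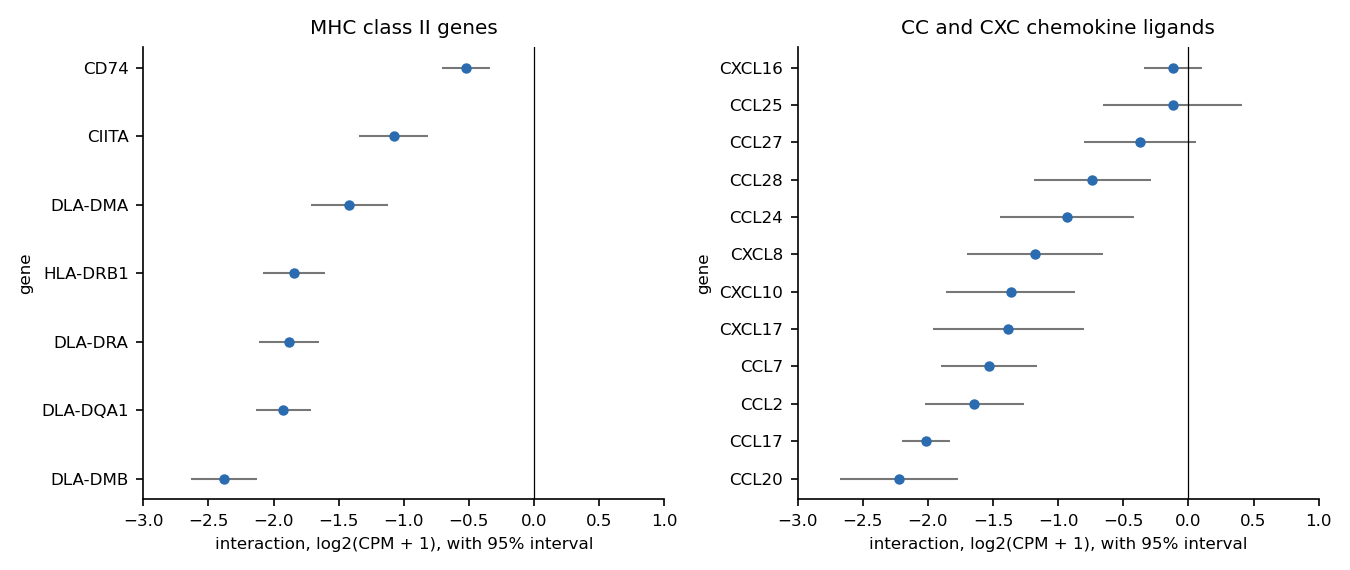
Interaction of each MHC class II gene (left) and each CC or CXC chemokine ligand (right), in log2(CPM + 1), as points with 95% intervals. All 7 MHC class II points and 9 of the 12 chemokine points lie below 0 with intervals that do not reach it.

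Complement genes, chosen in the same way, gave 4 negative interactions of 8 tested, against 6.45% of all genes. Since the MHC class II, chemokine, and complement groups were picked after their values were seen, these contrasts with all genes are no test. C3, the central component, had means of 43.9 CPM in WT, 165 CPM in CGN-KO, 80.1 CPM in CGNL1-KO, and 94.5 CPM in double-KO cells (interaction −1.64 ± 0.19, adjusted p = 3.38e-05). CFB, factor B of the alternative pathway, had 16.3, 44.4, 48.6, and 36.5 CPM (interaction −1.76 ± 0.19, adjusted p = 2.73e-05). C1S, a protease of the classical pathway, fell from 45.3 CPM in WT to 29.6 CPM in double-KO cells (interaction −1.08 ± 0.19, adjusted p = 0.00171). C2, of the same pathway, had means of 14.4 CPM in WT and 11.9 CPM in double-KO cells, a difference that did not pass the test (adjusted p = 0.118), and an interaction of −1.24 ± 0.16 (adjusted p = 0.000104). C1R, CFI, CD55, and CD59 did not pass the test. Replicate 1 of the single-KO lines was the highest for several of these genes, as for CFI with 14.2, 5.97, and 6.61 CPM in CGN-KO and 7.14, 3.07, and 4.28 CPM in CGNL1-KO cells, and for C1S with 58.3, 39.1, and 44.6 CPM in CGN-KO and 75.2, 51.3, and 60.8 CPM in CGNL1-KO cells.

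Beyond the sum were 13 genes, 4 higher and 9 lower in double-KO than in WT cells, all 13 among the 27 genes that edgeR placed in this class. The strongest was TRPA1, a cation channel gated by irritants. TRPA1 was at 32.9, 30.5, and 32.9 CPM in WT and at 41.2, 44.1, and 43.2 CPM in CGN-KO cells. It was at 12.2, 14.3, and 13.6 CPM in CGNL1-KO and at 87.2, 98.1, and 100 CPM in double-KO cells. No groups overlapped, and the order put the CGNL1-KO line lowest and the double-KO line highest, where the sum would give 18.1 CPM (interaction 2.33 ± 0.10, adjusted p = 9.37e-10). FBP2, the muscle form of fructose-1,6-bisphosphatase, had means of 4.17, 13.0, 0.988, and 13.1 CPM in WT, CGN-KO, CGNL1-KO, and double-KO cells. Its double-KO and CGN-KO levels differed by 0.02 ± 0.14 (adjusted p = 0.957). The lower level of CGNL1-KO against WT cells thus had no counterpart between those lines (interaction 1.38 ± 0.20, adjusted p = 0.000339). CCL20, a chemokine ligand of CCR6, showed the opposite pattern to TRPA1. It was at 11.1, 11, and 11 CPM in WT, 10.2, 9.53, and 9.62 CPM in CGN-KO, 31.3, 17.5, and 24.7 CPM in CGNL1-KO, and 4.17, 3.07, and 4.14 CPM in double-KO cells (interaction −2.22 ± 0.21, adjusted p = 6.51e-06). MMP9, a matrix metalloprotease outside the naming rule, followed the same order, with means of 2.04, 1.42, 7.69, and 0.479 CPM and an interaction of −2.08 ± 0.39 (adjusted p = 0.00226).

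COL4A1 and COL4A2, collagen IV chains of the basement membrane, rose in double-KO cells. COL4A1 was at 76.0, 89.1, and 82.0 CPM in WT, 86.8, 116, and 101 CPM in CGN-KO, 93.8, 105, and 93.5 CPM in CGNL1-KO, and 187, 177, and 198 CPM in double-KO cells. The double-KO libraries lay above all 9 others, of which the CGN-KO values overlapped both WT and CGNL1-KO values (interaction 0.65 ± 0.12, adjusted p = 0.00310). COL4A2, its partner chain, had means of 85.6, 90.9, 97.4, and 156 CPM (interaction 0.58 ± 0.12, adjusted p = 0.00504), and its double-KO difference of 0.86 was under 2-fold. COL4A5, a chain of another network, did not pass the test in double-KO cells (difference −0.20, adjusted p = 0.268), and its interaction was 0.20 ± 0.18 (adjusted p = 0.546). PPFIBP2, a liprin-β protein, was at 14.1, 12.3, and 10.8 CPM in WT, 9.10, 7.36, and 8.38 CPM in CGN-KO, 13.3, 11.1, and 11.9 CPM in CGNL1-KO, and 3.05, 2.96, and 3 CPM in double-KO cells (interaction −1.18 ± 0.16, adjusted p = 0.000128). EFEMP1, a matrix glycoprotein, had an interaction of 0.45 ± 0.13 (adjusted p = 0.0391) that lost its call in 8 of the 12 fits without 1 library, with adjusted p up to 0.111. The class held 8 genes without WT replicate 3.

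Only in the double-KO line meant that the double-KO difference and the interaction were called, and that both single-KO differences missed the test with 95% intervals within 2-fold of WT. The double-KO level also had to differ from each single-KO level. ADAMTS1, MELTF, and MX2 met this. ADAMTS1 encodes a secreted protease of the matrix. Its level was 15.2, 21.3, and 19.8 CPM in WT, 19.3, 17.5, and 17.7 CPM in CGN-KO, 22.5, 25.5, and 20.7 CPM in CGNL1-KO, and 53.0, 48.6, and 49.1 CPM in double-KO cells. MELTF, a membrane-bound protein of the transferrin family, was at 3.06, 3.09, and 4.06 CPM in WT, 4.65, 4.30, and 4.02 CPM in CGN-KO, 4.88, 3.20, and 3.05 CPM in CGNL1-KO, and 10.6, 11.8, and 12.9 CPM in double-KO cells. For both genes the double-KO libraries lay above the 9 others, among which WT overlapped each single-KO line. The double-KO difference from WT was 1.39 ± 0.10 for ADAMTS1 and 1.54 ± 0.14 for MELTF, and the interactions were 1.14 ± 0.15 (adjusted p = 0.000126) and 1.18 ± 0.20 (adjusted p = 0.00117). MX2, an interferon-induced GTPase, fell to 4.65, 6.88, and 6.25 CPM in double-KO cells, below the WT values of 14.8, 13.0, and 11.6 CPM, the CGN-KO values of 14.9, 10.4, and 11.6 CPM, and the CGNL1-KO values of 10.7, 10.4, and 13.8 CPM. Its interaction of −0.77 ± 0.21 (adjusted p = 0.0266) lost its call without WT replicate 2 or 3, CGN-KO replicate 1, CGNL1-KO replicate 3, or the unnumbered double-KO library, with adjusted p up to 0.0800.

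A step added after the data were seen dropped the 2-fold requirement on the double-KO difference and the interval requirement on the single-KO differences. It raised this class to 185 genes, 133 higher and 52 lower. Their median double-KO difference was 0.34 in size. WNT2, a secreted Wnt ligand, was among the higher genes. It was at 5.95, 6.73, and 7.12 CPM in WT, 7.22, 6.52, and 7.09 CPM in CGN-KO, 6.62, 7.94, and 7.22 CPM in CGNL1-KO, and 12.7, 13.0, and 14.2 CPM in double-KO cells (interaction 0.73 ± 0.14, adjusted p = 0.00267). EPHA4, an ephrin receptor, had means of 4.68, 5.28, 3.12, and 9.39 CPM (interaction 1.24 ± 0.24, adjusted p = 0.00329). CXCR4, the signalling receptor of CXCL12, had means of 2.31 CPM in WT, 2.85 CPM in CGN-KO, 2.44 CPM in CGNL1-KO, and 0.708 CPM in double-KO cells (interaction −1.23 ± 0.24, adjusted p = 0.00352). Of the 133 higher genes, 108 lie on the chromosomes that hold MYH14 and CTNND1, where their median difference was 0.32, against 0.53 for those elsewhere.

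**Figure D3:**
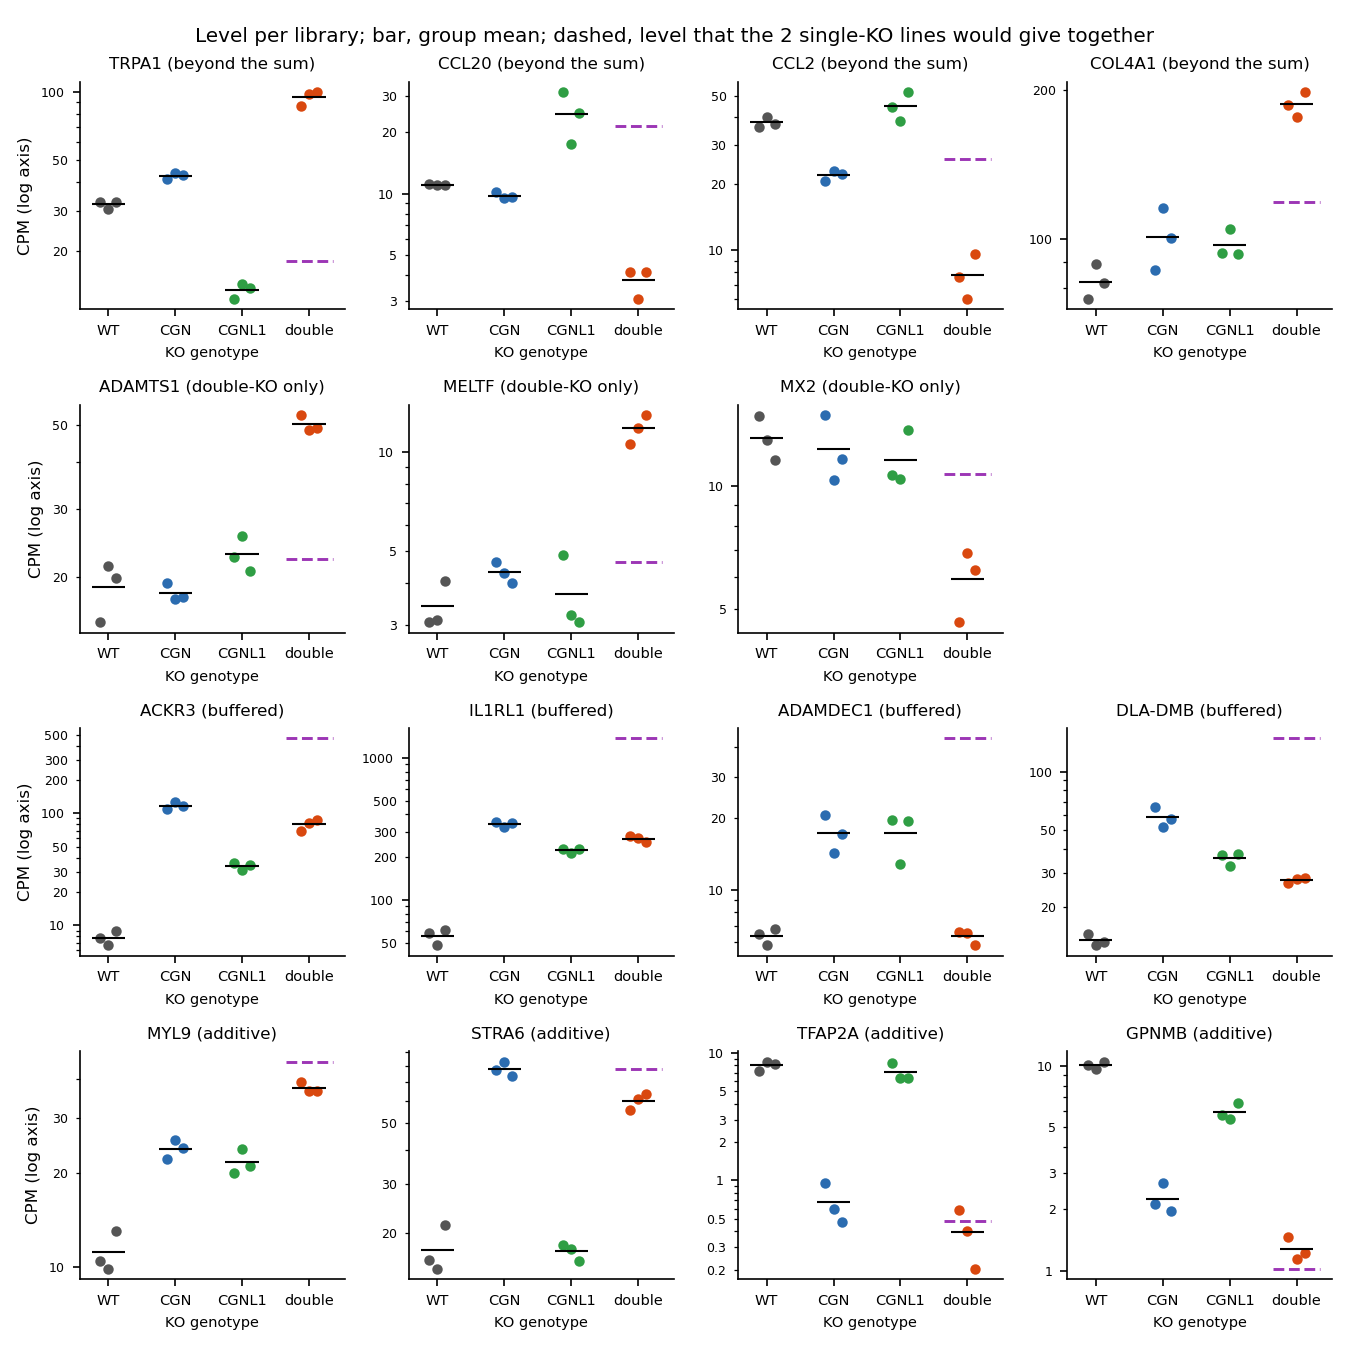
Level of 15 genes in each library (points, CPM on log axes that do not start at 0), with the mean of each genotype (bars) and the level that the sum of the single-KO differences would give in double-KO cells (dashed). Double-KO points of genes beyond the sum lie past the dashed line, or for TRPA1 and CCL20 across WT from it. They lie short of the dashed line for buffered genes and near it for additive genes.

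Additive genes mostly followed the CGN-KO line. Of the 57, 31 were higher and 26 lower in double-KO than in WT cells. Both single-KO differences had an adjusted p below 0.05 in 31 genes, the CGN-KO difference alone in 24, and the CGNL1-KO difference alone in 2. The larger single-KO difference was that of CGN-KO cells in 47. The median size of their interaction was 0.23 and the largest 0.57, and the sign was opposite to the sum in 42. MYL9, a regulatory light chain of nonmuscle and smooth muscle myosin, was higher than WT in both single-KO lines. It was at 10.5, 9.88, and 13.1 CPM in WT, 22.1, 25.5, and 24.1 CPM in CGN-KO, 20, 24.0, and 21.0 CPM in CGNL1-KO, and 39.2, 36.7, and 36.6 CPM in double-KO cells. The single-KO lines overlapped each other, WT lay below them, and the double-KO libraries lay above them. The interaction was −0.27 ± 0.14 (adjusted p = 0.241), with an interval from −0.57 to 0.02. GPNMB, a transmembrane glycoprotein linked to lysosomes, was lower than WT in both single-KO lines. Its means were 10 CPM in WT, 2.24 CPM in CGN-KO, 5.93 CPM in CGNL1-KO, and 1.27 CPM in double-KO cells (interaction 0.17 ± 0.16, interval −0.18 to 0.51).

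In other additive genes the CGN-KO difference was the larger by far. TFAP2A, a transcription factor of epidermis and neural crest, was at 7.25, 8.56, and 8.17 CPM in WT and at 8.42, 6.36, and 6.37 CPM in CGNL1-KO cells, which overlapped. It was at 0.956, 0.593, and 0.472 CPM in CGN-KO and 0.581, 0.398, and 0.203 CPM in double-KO cells (interaction −0.10 ± 0.21, interval −0.54 to 0.35). STRA6, the membrane receptor for retinol-binding protein, had means of 17.4 CPM in WT, 78.0 CPM in CGN-KO, 17.2 CPM in CGNL1-KO, and 59.7 CPM in double-KO cells. Its interaction of −0.38 ± 0.15 (adjusted p = 0.121) became −0.53 with an adjusted p of 0.00871 without WT replicate 3. SNCG (γ-synuclein) had 14.5, 47.8, 19.2, and 49.8 CPM in the same order, and its CGNL1-KO difference of 0.39 passed the test as well (adjusted p = 0.0189). SDSL, a serine dehydratase-like enzyme, had 3.46, 14.5, 3.07, and 15.4 CPM. The BMP target genes ID1 and ID3, chosen after their values were seen, were additive too. ID1 had 36.1, 96.9, 45.3, and 83.2 CPM (interaction −0.52 ± 0.22, adjusted p = 0.154), and ID3 had 5.66, 15.9, 6.96, and 15.6 CPM (interaction −0.27 ± 0.20, adjusted p = 0.446). The 95% intervals of ID1 (−0.98 to −0.05), STRA6 (−0.69 to −0.07), and SNCG (−0.62 to −0.03) did not include 0. For these genes the additive class means an interaction within 2-fold that was not called, and not one of 0.

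The same interaction can be read as the effect of 1 loss in 2 backgrounds. Each such effect is a difference between 2 lines, in which gene loss and properties of a clone cannot be told apart. CGNL1 loss was measured as CGNL1-KO minus WT and again as double-KO minus CGN-KO, from separate libraries. CGN loss was measured as CGN-KO minus WT and again as double-KO minus CGNL1-KO. Across the 12650 genes, which are not independent replicates, the Pearson r of the paired effects was −0.048 for CGNL1 loss (slope −0.044) and 0.313 for CGN loss (slope 0.268). Over the 9354 genes with a mean above 10 CPM, r was −0.122 and 0.307. The effect of CGNL1 loss in CGN-KO cells was called at an adjusted p below 0.05 for 1118 genes (8.84%), and that of CGN loss in CGNL1-KO cells for 1823 genes (14.4%).

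Genes called in a single-KO line were then followed into the other background. Of the 78 genes called for CGNL1 loss in the WT background, 10 (12.8%) moved the same way in the CGN-KO background at an adjusted p below 0.05, 17 (21.8%) moved the opposite way, and 51 did not pass the test. Their median difference, signed by the first direction, was 1.29 in WT and −0.14 in CGN-KO background. Of the 166 genes called for CGN loss, 76 (45.8%) moved the same way in the CGNL1-KO background, 11 (6.63%) the opposite way, and 79 did not pass. Their medians were 1.31 and 0.32. These genes were chosen by the first difference of each pair, which is therefore larger by selection. The interaction was called in 65 of the 78 and 117 of the 166. For ADAMDEC1, CCL20, DLA-DMB, SCGB1A1, and TRPA1 the 2 differences that stand for CGNL1 loss were at least 2-fold in opposite directions. TRPA1, for example, had a CGNL1-KO minus WT difference of −1.20 ± 0.07 and a double-KO minus CGN-KO difference of 1.13 ± 0.07. ADAMDEC1 did the same in the differences that stand for CGN loss, with 1.31 ± 0.15 for CGN-KO minus WT and −1.30 ± 0.15 for double-KO minus CGNL1-KO.

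**Figure D4:**
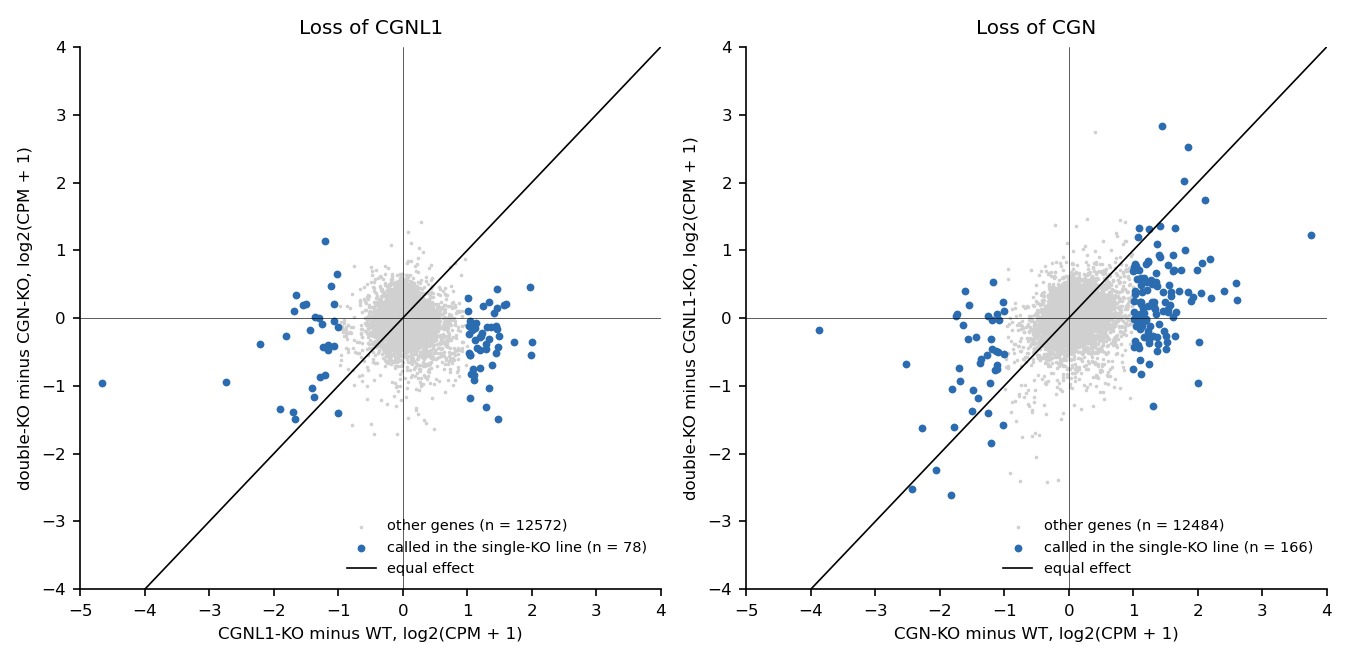
Effect of CGNL1 loss (left) and of CGN loss (right) in log2(CPM + 1), with the WT background on the horizontal axis and the background lacking the other gene on the vertical axis. Genes called in the single-KO line (blue, n = 78 and n = 166) scatter around 0 on the vertical axis for CGNL1 loss and are shifted towards the line of equal effect for CGN loss.

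Gene lists for junctions, the cytoskeleton, and common cell programmes were read against the background of 3.87% positive and 6.45% negative interactions over all genes. The lists were written with earlier results of these data known, so these contrasts with all genes are no test. Of 26 tight junction genes tested, CGN and CGNL1 among them, 2 had a positive and 1 a negative interaction, and 23 had an interval within 2-fold. CLDN16, a claudin of paracellular magnesium transport, had means of 38.0, 25.7, 25.5, and 32.1 CPM in WT, CGN-KO, CGNL1-KO, and double-KO cells (interaction 0.86 ± 0.18, adjusted p = 0.00552). MARVELD3, a membrane protein related to occludin, had the negative one (−0.42 ± 0.10, adjusted p = 0.0103). Of 20 adherens junction genes, 1 was positive and 5 were negative. E-cadherin (CDH1) had means of 1093 CPM in WT, 1147 CPM in CGN-KO, 1295 CPM in CGNL1-KO, and 999 CPM in double-KO cells (interaction −0.44 ± 0.09, adjusted p = 0.00501). NECTIN3 and SORBS2, an adhesion molecule and an actin-binding adaptor, were buffered with interactions of −0.69 ± 0.10 and −0.68 ± 0.09, and PLEKHA7, a partner of p120 catenin at the zonula adherens, had the positive one (0.82 ± 0.17, adjusted p = 0.00574).

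Actomyosin genes and their regulators held 2 positive and 1 negative interaction among 34, with 33 intervals within 2-fold. MYH14, the heavy chain of nonmuscle myosin 2C, had means of 86.1, 132, 114, and 118 CPM (interaction −0.54 ± 0.14, adjusted p = 0.0232), and ROCK2, a kinase that promotes myosin contraction, had 120, 78.3, 103, and 82.6 CPM (interaction 0.30 ± 0.09, adjusted p = 0.0498). SRF-MRTF targets gave 2 positive and 2 negative calls among 14, led by CNN2 (calponin-2) with 9.47, 20.6, 13.1, and 12 CPM and an interaction of −1.16 ± 0.11 (adjusted p = 6.46e-06). FHL1, a positive call of that list, had a mean of 0.159 CPM in double-KO cells and an expected level below 0 CPM. YAP targets gave 3 negative calls among 10. TGFB2 had means of 30, 55.6, 57.6, and 59.5 CPM, so that the means of the 3 KO lines lay close together (interaction −0.82 ± 0.11, adjusted p = 0.000128). CTGF, the older symbol of CCN2, had 41.5, 67.7, 59.0, and 67.1 CPM (interaction −0.51 ± 0.14, adjusted p = 0.0251). ANKRD1 had 129, 172, 202, and 111 CPM (interaction −1.28 ± 0.21, adjusted p = 0.000832), with the double-KO mean below both single-KO means.

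Matrix and integrin genes had 4 positive and 8 negative interactions among 30. TGFBI, a secreted matrix protein, was at 31.2 CPM in WT, 111 CPM in CGN-KO, 53.5 CPM in CGNL1-KO, and 108 CPM in double-KO cells (interaction −0.79 ± 0.10, adjusted p = 0.000127). The integrin chain ITGB3 had 379, 568, 550, and 566 CPM (interaction −0.54 ± 0.08), while ITGA6 and ITGB8 were positive (0.39 ± 0.09 and 0.57 ± 0.10). The laminin chains LAMA3 and LAMB3 were both negative, at −0.28 ± 0.08 and −0.43 ± 0.11. Glycolysis and hypoxia targets gave 5 negative calls among 25, led by the carbonic anhydrase CA12 with 43.5, 79.9, 123, and 71.0 CPM (interaction −1.62 ± 0.16, adjusted p = 6.99e-06). The median interaction of the 30 matrix genes was −0.09 and of the 25 glycolysis and hypoxia genes −0.11.

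Cell cycle genes gave 0 positive and 3 negative calls among 30, interferon response genes 1 and 2 among 26, and cholesterol synthesis genes 0 and 1 among 23. CDKN1A, the cell cycle inhibitor p21, had means of 392, 464, 527, and 353 CPM (interaction −0.82 ± 0.09, adjusted p = 3.00e-05). PCNA had 214, 299, 306, and 309 CPM (interaction −0.46 ± 0.09, adjusted p = 0.00221), with close means in the 3 KO lines. Among the 10 epithelial markers, KRT18 was positive and CDH1, EPCAM, and KRT19 were negative, all under 2-fold. Of the 3 tested markers of other cell types, KDR was negative (−1.07 ± 0.20, adjusted p = 0.00233) at means between 0.208 and 2.24 CPM.

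**Figure D5:**
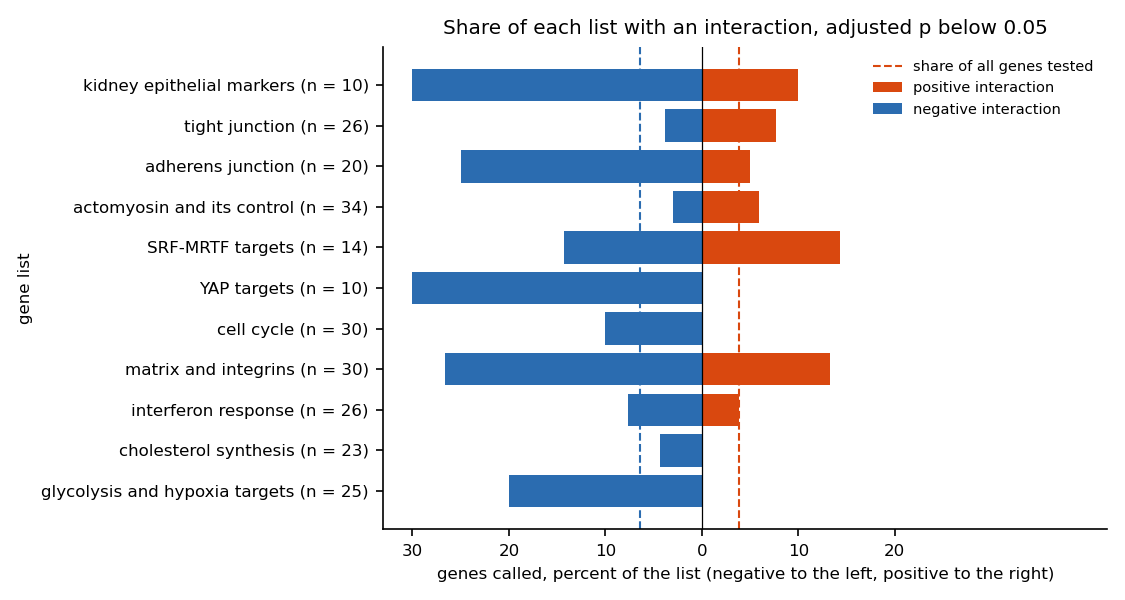
Percent of each gene list of 10 or more tested genes with a positive (right) or negative (left) interaction at an adjusted p below 0.05, beside the shares over all genes tested (dashed, 3.87% and 6.45%). The lists were written with earlier results of these data known. Negative shares were 30% for the epithelial marker and YAP target lists of 10 genes each, 26.7% for matrix and integrin genes, 25% for adherens junction genes, and 20% for glycolysis and hypoxia targets, while those of the tight junction, actomyosin, and cholesterol synthesis lists lay below the dashed line.

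Part of the interactions followed chromosomes. For each chromosome and library the median shift of its genes was taken, and the interaction was tested over 39 chromosomes. It was called for 10 (25.6%), and 3 of these were shifted by more than 0.1. The chromosome that holds MYH14 had an interaction of 0.19 ± 0.015 (688 genes, adjusted p = 1.79e-08), the one that holds CTNND1 of 0.16 ± 0.017 (398 genes, adjusted p = 3.40e-07), and the one that holds MYL9 of −0.24 ± 0.023 (317 genes, adjusted p = 2.14e-07). Each of the 3 was called in all 12 fits without 1 library, while the count of 10 became 5 without WT replicate 2 and 6 without CGNL1-KO replicate 2. The first 2 chromosomes were shifted in the double-KO line (by 0.20 and 0.30 from WT) and little in the single-KO lines (0.0072 and 0.0034 for that of MYH14, 0.091 and 0.051 for that of CTNND1). The chromosome of MYL9 was shifted in all 3 KO lines, by 0.19, 0.20, and 0.16.

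These 3 chromosomes held many small interactions. Of 465 positive interactions placed on a chromosome, 186 (40%) lay on those of MYH14 and CTNND1, which hold 9.24% of placed genes. Of 776 negative ones, 94 (12.1%) lay on that of MYL9, which holds 2.7%. Together the 3 chromosomes hold 1403 (11.9%) of the placed genes. They held 21 (10.7%) of the 197 placed interactions of at least 2-fold, 64 (19.2%) of the 333 placed buffered genes, 7 (13.0%) of the 54 placed additive genes, and 2 (16.7%) of the 12 placed genes beyond the sum. FBP2 lies on the chromosome of MYH14, SCGB1A1 on that of CTNND1, and PCNA and ID1 on that of MYL9, whereas TRPA1, COL4A1, ADAMTS1, MELTF, and MX2 lie on others. Whether the copy number of these chromosomes differed between the lines was not tested.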

How the data were processed

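Reads of 12 libraries, 3 for each of 4 MDCKII genotypes, were made with a stranded mRNA kit as single-end reads. Per the submitters' processing notes, tools and build included STAR 2.7.0f, HTSeq 0.9.1, and CanFam3.1, and the strand setting of the counting and the annotation release are not given in the sources used here. The authors deposited 1 table of normalized signal, in CPM scaled by library-size factors (0.966 to 1.02, so that columns sum to 976521 to 1035210). All values were whole multiples of 1 read per library (tolerance 0.01 reads), which gave back the reads and depths of 16837532 to 30086076. Depth limits genes near 1 CPM, and the lowest values rest on few reads.

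The 12650 genes that exceeded 1 CPM in 3 or more libraries were fitted with limma 3.58.1 (R 4.3.3, empirical Bayes with a trend) on log2(CPM + 1), a pseudocount of 1, with all 12 libraries sharing 1 estimate of the spread, and p-values were adjusted by Benjamini-Hochberg over all of them. A call for a difference from WT took an adjusted p below 0.05 and a change of at least 2-fold, and intervals are 95%. edgeR 4.0.16 (quasi-likelihood) and DESeq2 1.42.0 on the recovered reads were alternatives, beside other pseudocounts, filters, scalings, and leaving out each library. Reads were also simulated from the WT means and the library sizes, with 200 of 12650 genes changed by at least 2-fold in the double-KO group alone. In these, limma found 198 with 13 false calls, edgeR 198 with 11, and DESeq2 197 with 29. No single-KO difference, no smaller change, and no spread that varied by gene were simulated. These counts therefore do not give the power or the false calls of the tests on the real libraries. Figures were drawn with matplotlib 3.10.9.

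The members, lists, and classes were chosen with earlier results of these data known. Named genes were CGN and CGNL1, the 6 largest positive and 6 largest negative called interactions, the 4 at each end of each class (except for additive genes, with all 3 double-KO values on the same side of the expected level), and up to 3 of each list with the smallest p, leaving out LOC and date-form names (16 names in the table were dates). Other genes named were chosen after their values were seen. Older symbols were used for CCN1, CCN2, PALS1, and RIGI. Gene positions came from the RefSeq annotation of another assembly (UU_Cfam_GSD_1.0), used only to place 11755 tested genes (92.9%) on chromosomes, and no coordinates are given. Chromosomes with at least 30 genes were tested. One double-KO column carries no replicate number. CPM is not per length, so levels are not compared between genes. A few genes are not reported here.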

Additional observations from a re-analysis of the deposited data

Results flagged for a closer look

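The double-KO level differed from the sum of the single-KO differences for 1306 of 12650 genes, by the interaction test at an adjusted p below 0.05. When genes on called chromosomes were left out, it did so for 746 of the 8892 genes that remained. Each genotype was 1 line, so gene loss and properties of a clone cannot be told apart. In 5 genes the CGNL1-KO minus WT and double-KO minus CGN-KO differences were at least 2-fold in opposite directions. Their interactions were −2.61 for ADAMDEC1, −2.22 for CCL20, −2.38 for DLA-DMB, −2.96 for SCGB1A1, and 2.33 for TRPA1. ADAMDEC1 did so in the differences that stand for CGN loss too, with the same interaction of −2.61. SCGB1A1 lies on the chromosome of CTNND1, which was shifted in double-KO cells. That chromosome had an interaction of 0.16, opposite in sign to that of SCGB1A1, and the part of its shift in the value was not tested.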

How the results depend on the processing

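For 32 named genes under up to 21 alternatives each, 655 of 671 values kept their direction and side of the threshold, 15 lost the call (6 for MX2 and 9 for EFEMP1), 1 gained it (STRA6), and 0 reversed. Leaving out 1 library at a time gave 831 to 1618 genes with an interaction, 179 to 256 of at least 2-fold, 285 to 384 buffered, 48 to 58 additive, 2 to 5 double-KO only, 8 to 17 beyond the sum, and 0 to 2 reversed genes, and 5 to 11 chromosomes. The lowest count of 831 came without WT replicate 2, and the highest number of double-KO only genes without WT replicate 1, CGN-KO replicate 2, or double-KO replicate 3. An adjusted p below 0.01 left 586 interactions. Leaving out genes on called chromosomes left 8892 of the 12650 genes. Among these were 746 interactions at an adjusted p below 0.05, 221 buffered genes, and 8 beyond the sum. Interactions of at least 2-fold numbered 80 with a pseudocount of 4, 136 above 5 CPM, 308 by edgeR, 310 by DESeq2, and 550 at 1.5-fold. A pseudocount of 4 gave 222 buffered, 19 additive, and 6 beyond the sum, and an interval within 1.5-fold gave 21 additive. Double-KO only genes numbered 9 with a pseudocount of 0.5, 8 by edgeR and by DESeq2, and 185 at any fold without the interval requirement. Genes beyond the sum numbered 27 by edgeR and by DESeq2, which each placed 1 gene as reversed. Above 10 CPM, r for CGNL1 loss was −0.122. edgeR kept 337 of the 352 buffered and 39 of the 57 additive genes in their class. The cause of these changes was not tested.

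The replicate numbers did not pair the libraries of all 4 lines. Deviations of same-numbered libraries correlated at 0.632, 0.475, and 0.179 between the single-KO lines, at −0.0822 to 0.373 between WT and the single-KO lines, and at −0.235 to 0.0859 with the double-KO line. A replicate block over the 11 numbered libraries gave 1428 interactions, against 843 in the same libraries without it, with 178 of at least 2-fold, 376 buffered, 60 additive, 2 double-KO only, 14 beyond the sum, and 0 reversed.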
